A study of Mus musculus with 8 samples.

Results

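JAK kinases and STAT transcription factors relay cytokine signals from the cell surface to the nucleus. Their transcripts were followed in normal haematopoietic stem cells (HSCs), chronic myelogenous leukaemia (CML) stem cells and the progenitors of both. Members were taken by gene symbol, with earlier results of these data known, and are 9 of the 20207 genes in the deposited tables. They are 4 kinases (Jak1, Jak2, Jak3 and Tyk2) and 5 transcription factors (Stat3, Stat4, Stat5a, Stat5b and Stat6).

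A cytokine receptor without kinase activity of its own binds JAK kinases on its cytoplasmic tail. When the ligand joins the receptor chains, the kinases phosphorylate one another, the receptor and the STAT proteins, which pair and move to the nucleus to activate target genes. In blood formation, Jak2 serves the erythropoietin and interleukin-3 family receptors, Jak1 the interferon and gp130 receptors and, with Jak3, the common gamma chain receptors, and Tyk2 the interferon and interleukin-12 receptors. The tyrosine kinase BCR-ABL1, which drives CML, is known to activate STAT5 proteins. This regulation acts largely through phosphorylation, and transcript levels do not measure it.

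RNA from bone marrow cells sorted from healthy and CML mice was sequenced in 8 libraries. Long-term (LT) and short-term (ST) stem cells were both CD48-CD135-KLS+ and were told apart by CD150, which LT cells carry and ST cells lack, and KLS- cells were cKit+Lin-Sca-1- progenitors. Normal mice gave 2 LT-HSC libraries, labelled 2 months old (replicate 1) and 6 months old (replicate 2), and 1 library each of ST-HSCs and KLS- cells, both labelled 2 months old. CML mice gave 2 LT-CML libraries and 1 library each of ST-CML and CML-KLS- cells, with no age in the labels. The study's methods describe CML mice as Tal1-tTA+ TRE-BCR-ABL1+ and controls as Tal1-tTA+ littermates of the FVB/N background. Both were male and female, 8 to 12 weeks old, and cells of both were taken 5 weeks after doxycycline withdrawal. The labels differ and name the strain of all 8 libraries as C57BL/6. In this model the Tal1 promoter fragment drives the tetracycline transactivator in stem and progenitor cells, and the controls carry the transactivator too. The 2 LT-HSC libraries are labelled with different ages, so they came from different mice and their spread includes age. For the 2 LT-CML libraries the labels do not say whether the animals were separate, and their spread may be technical. For LT-CML against LT-HSC, and for the difference of disease effects, the p-values measure the spread within these 2 LT pairs. For CML stem cells against normal HSCs they measure the spread among the 3 libraries of each group, which includes the difference between LT and ST cells. In the other comparisons the spread also includes how far the disease effect differs between cell types.

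The depth estimated from the steps of low values was 17.8 to 23.9 M reads per library, and each member's value rested on about 56 to 5244 reads. Markers followed the sort of KLS+ from KLS- cells in both directions. Levels are in RPKM (reads per kilobase of transcript, scaled to the mapped reads of the library). The summed level of 5 KLS+ stem cell genes was 249 to 473 RPKM in the 6 stem cell libraries and 89.4 to 103 RPKM in the 2 KLS- libraries. Together, 4 progenitor genes reached 12253 to 19623 RPKM in the KLS- libraries and 25.1 to 2563 RPKM in the stem cell libraries. Within stem cells, Slamf1 (CD150) was 10.7 to 35.45 RPKM in LT libraries and 1.11 and 2.87 RPKM in ST-HSCs and ST-CML. The ST cells were sorted as CD135-CD48-, yet their libraries held 61.6 and 71.6 RPKM of Flt3 (CD135) and 41.8 and 45.2 RPKM of Cd48. In 3 stem cell libraries, transcripts typical of other blood cells were high. LT-HSC replicate 2 held 3167 RPKM of 4 summed neutrophil genes (S100a8, S100a9, Ltf and Camp), against 384 RPKM in LT-HSC replicate 1, 12.3 RPKM in ST-HSCs, 172 to 886 RPKM in CML stem cells and 110 to 595 RPKM in KLS- cells. LT-CML replicate 2 and ST-CML held 1291 and 830 RPKM of Mpo, a granule enzyme of myeloid progenitors, against at most 95.5 RPKM in the other 4 stem cell libraries. The mouse rows do not mark the human transgene: Abl1 was between 2.27 and 4.70 RPKM and Bcr between 2.61 and 3.49 RPKM in all 8 libraries.

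The 9 genes lie on 7 chromosomes of the mm9 genome (GENCODE M1 annotation), and 3 of the STAT genes are neighbours. Stat5b lies on the minus strand at chr11:100642045-100712038, Stat5a on the plus strand at chr11:100720665-100746483 and Stat3 on the minus strand at chr11:100746412-100800854. Stat5b and Stat5a are 8626 bases apart, and the last 72 bases of Stat5a overlap the end of Stat3 on the other strand. Jak1 lies at chr4:100824972-100937887 (minus), Jak2 at chr19:29326318-29387570 (plus), Jak3 at chr8:74200195-74214474 (plus), Tyk2 at chr9:20908521-20931790 (minus), Stat4 at chr1:52043992-52164032 (plus) and Stat6 at chr10:127080042-127098013 (plus). Jak3 shares 1362 bases on its own strand with Insl3, which was listed at 0 in 7 libraries and at 0.165 RPKM in LT-CML replicate 1. Tyk2 lies wholly within a noncoding gene of the other strand, 1700084C06Rik. How reads in these overlaps were assigned is not stated in the sources used here.

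The sequences of Stat5a and Stat5b decide how well their values can be told apart. Their coding sequences were identical at 2128 of 2346 aligned bases (90.7%), whereas the other pairs within the JAK or STAT family reached 58.3 to 65.5%. Of all windows of 50 bases, 15.8% in the Stat5a transcript also occurred in Stat5b and 12.1% of those in Stat5b occurred in Stat5a. For windows of 100 bases, the length of a read, the shares were 6.99% and 5.34%. No such window of Jak1, Jak2, Tyk2, Stat3, Stat4 or Stat6 occurred in the protein-coding transcripts of another gene. The longest shared run spans 152 bases, from codon 228 to codon 278 of both genes. It lies in exon 8 of Stat5a (chr11:100735653-100735804, plus strand) and exon 7 of Stat5b (chr11:100659548-100659699, minus strand). A read from within it has 2 equal matches when taken by itself. Its mate from the other end of the fragment may lie outside the run, and how mates were used is not given.
Stat5a and Stat5b, shared run: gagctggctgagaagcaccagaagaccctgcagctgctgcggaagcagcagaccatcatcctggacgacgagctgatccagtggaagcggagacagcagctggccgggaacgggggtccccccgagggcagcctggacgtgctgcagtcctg
The ends of the coding sequences differ and are shown up to the stop codon from the same aligned start, with capitals at bases that differ between the genes or have no partner. They lie in exon 20 of Stat5a (chr11:100745191-100745310, plus strand, 57 of 120 bases in capitals) and exon 19 of Stat5b (chr11:100644410-100644493, minus strand, 21 of 84 bases in capitals).
Stat5a, end of coding sequence: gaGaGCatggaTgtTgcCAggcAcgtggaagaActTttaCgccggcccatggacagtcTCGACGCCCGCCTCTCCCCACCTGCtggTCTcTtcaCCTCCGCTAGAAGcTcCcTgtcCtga
Stat5b, end of coding sequence: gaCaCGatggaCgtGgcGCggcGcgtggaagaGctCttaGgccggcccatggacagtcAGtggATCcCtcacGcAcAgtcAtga
The deposited levels of Stat5a and Stat5b are therefore uncertain as far as reads from shared stretches could have been split between them, and their sum is given below as well.

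All 4 kinases were detected in every library, with Jak1 far above the rest. Since RPKM is per kilobase, levels are set side by side between genes. Reads weighted towards 3′ ends by oligo-dT priming, and an annotation that is not given, make such comparisons approximate. Jak1 was 44.7 and 39.5 RPKM in LT-HSCs, 56.9 in ST-HSCs and 19.6 in normal KLS- cells. In CML mice it was 44.5 and 37.3 RPKM in LT-CML stem cells, 53.0 in ST-CML stem cells and 21.3 in CML-KLS- cells. The ST libraries were therefore highest and the KLS- libraries lowest, each with its normal and its CML library side by side in the order. Jak1 made up 74.3 to 81.5% of the summed RPKM of the 4 kinases in stem cells and 67.5 to 71.4% in KLS- cells.

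Jak2, the kinase of the erythropoietin receptor, was 6.30 and 9.11 RPKM in LT-HSCs, 5.20 in ST-HSCs and 4.07 in normal KLS- cells. It was 4.75 and 4.96 RPKM in LT-CML stem cells, 4.26 in ST-CML stem cells and 2.30 in CML-KLS- cells. The 3 normal HSC libraries headed the order, the 3 CML stem cell libraries followed, and both KLS- libraries came last. LT-HSC replicate 2, which had the most neutrophil transcripts and was the only library labelled 6 months old, had the highest Jak2.

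Jak3, which pairs with the common gamma chain, was the lowest kinase on average. It was 2.88 and 1.59 RPKM in LT-HSCs, 3.97 in ST-HSCs, 3.61 and 2.86 in LT-CML stem cells and 3.63 in ST-CML stem cells but 0.806 and 0.782 in the normal and the CML KLS- library. Every stem cell library lay above both KLS- libraries. Jak3 also had the fewest reads of the 9 genes, with a counting error of up to 13.4% of the value.

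Tyk2 had another order. It was 3.49 and 3.01 RPKM in LT-HSCs, 4.78 in ST-HSCs, 3.91 and 2.28 in LT-CML stem cells and 4.10 in ST-CML stem cells, and 4.55 and 5.45 in the normal and the CML KLS- library. The stem cell and KLS- libraries overlapped. With the other kinases lower in KLS- cells, the Tyk2 share of summed JAK RPKM was 15.7 to 18.3% there and 4.81 to 6.90% in stem cells. This difference of 10.9 percentage points is a description, chosen after the values were seen, and was not tested.

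**Figure D1:**
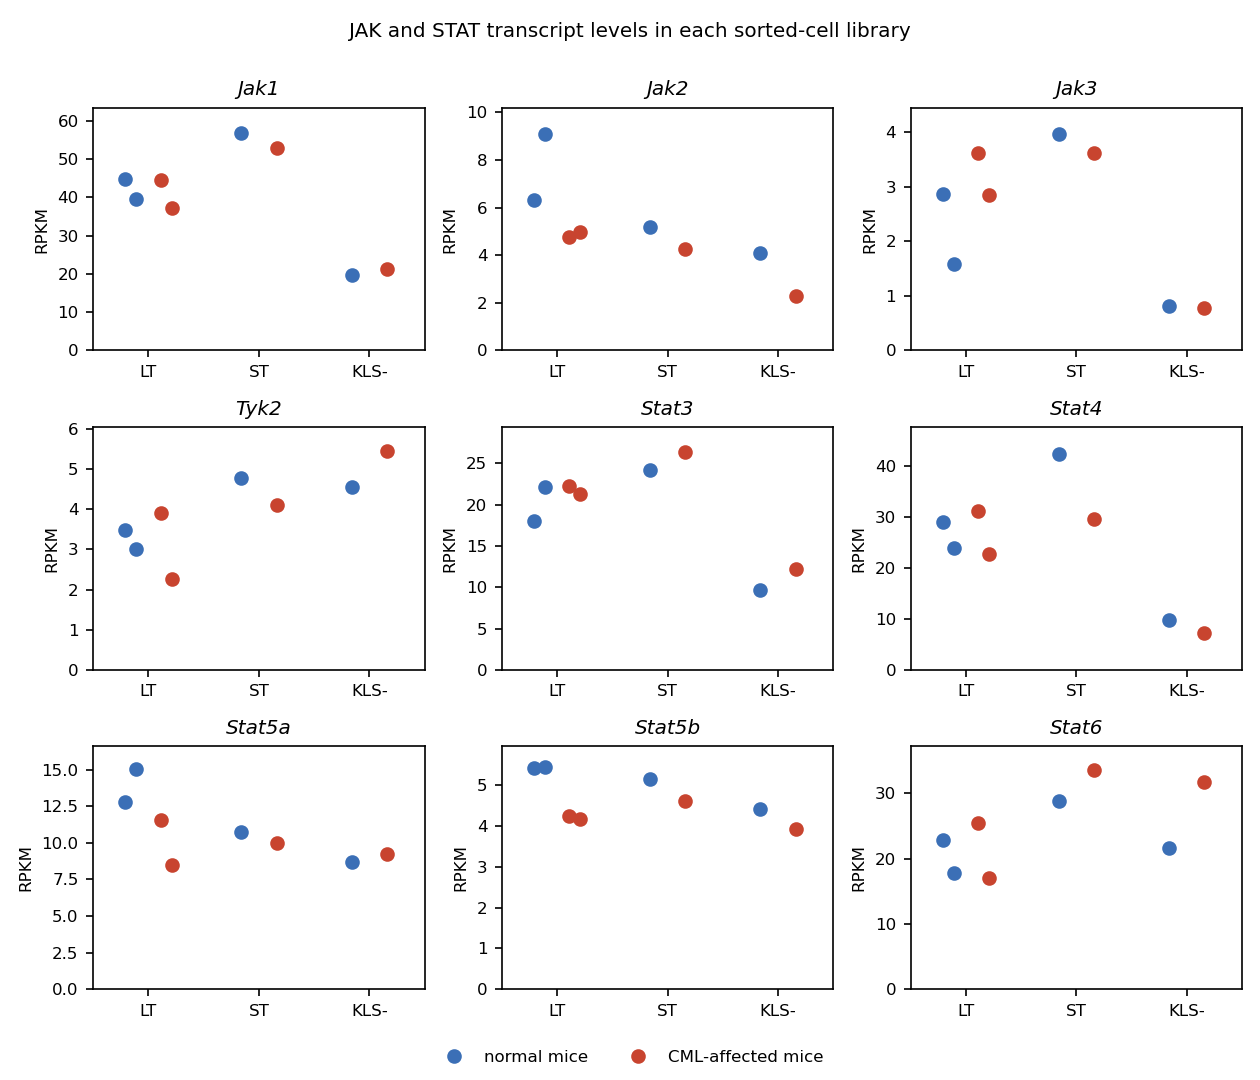
RPKM of the 4 JAK kinases and 5 STAT factors (y axes, each from 0) in LT, ST and KLS- cells (x axes), with 1 point per library, blue for normal and red for CML-affected mice. Jak1, Jak2, Jak3, Stat3 and Stat4 were lower in both KLS- libraries than in any of the 6 stem cell libraries, and the red Jak2 and Stat5b points of stem cells lie below all blue ones.

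Among the STAT factors, Stat4, known for transmitting interleukin-12 signals in lymphocytes, had the highest level in 5 of the 6 stem cell libraries. It was 29.1 and 23.9 RPKM in LT-HSCs, 42.4 in ST-HSCs, 31.3 and 22.7 in LT-CML stem cells and 29.7 in ST-CML stem cells. In KLS- cells it was 9.82 (normal) and 7.27 RPKM (CML). The ranges of stem and KLS- libraries were thus far apart, and Stat4 had the widest span of the 9 genes, 5.84-fold from ST-HSCs to CML-KLS- cells.

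Markers of lymphoid cells were measured in the same libraries. Summed over 3 genes, T cell markers were 0.821 to 2.96 RPKM in stem cells and 0.485 to 1.81 RPKM in KLS- cells. The 2 NK cell markers together were 0.339 to 2.92 RPKM in stem cells and 0.237 to 0.538 RPKM in KLS- cells. The 3 B cell markers together were 0.311 to 7.71 RPKM in stem cells, highest in ST-CML, and 0.619 to 0.686 RPKM in KLS- cells. Flt3, a receptor of lymphoid-primed progenitors, was 61.6 and 71.6 RPKM in the ST-HSC and ST-CML libraries, 2.52 to 19.2 RPKM in LT cells and 10.02 and 17.1 RPKM in KLS- cells. The part of these transcripts in the Stat4 levels was not tested.

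Stat6, the interleukin-4 factor, was 22.9 and 17.9 RPKM in LT-HSCs, 28.9 in ST-HSCs, 25.5 and 17.0 in LT-CML stem cells, 33.6 in ST-CML stem cells, 21.6 in normal KLS- cells and 31.8 in CML-KLS- cells. It was the highest STAT in ST-CML stem cells and in both KLS- libraries. The ratio of Stat6 to Stat4 was 0.680 to 1.13 in stem cells and 2.20 to 4.38 in KLS- cells, a difference of 1.94 on the log2 scale. This ratio was chosen after its values were seen and was not tested.

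Stat3, the factor of gp130 cytokines, was 18.1 and 22.1 RPKM in LT-HSCs, 24.3 in ST-HSCs, 22.3 and 21.3 in LT-CML stem cells and 26.4 in ST-CML stem cells. The normal and the CML KLS- library had 9.63 and 12.2 RPKM. The stem cell libraries lay within a narrow range and all above the KLS- libraries.

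Stat5a and Stat5b, which carry interleukin-3 and erythropoietin signals, had the smallest spans, 1.78-fold and 1.39-fold from the lowest to the highest library. Stat5a was 12.8 and 15.0 RPKM in LT-HSCs, 10.8 in ST-HSCs, 8.67 in normal KLS- cells, 11.6 and 8.46 in LT-CML stem cells, 9.96 in ST-CML stem cells and 9.25 in CML-KLS- cells. Stat5b was 5.42 and 5.43 RPKM in LT-HSCs, 5.16 in ST-HSCs, 4.41 in normal KLS- cells, 4.25 and 4.17 in LT-CML stem cells, 4.61 in ST-CML stem cells and 3.92 in CML-KLS- cells. Stat5a was 1.96 to 2.77 times Stat5b in each of the 8 libraries. The sum of both was 15.9 to 20.5 RPKM in normal HSCs, 12.6 to 15.8 in CML stem cells and 13.1 to 13.2 in KLS- cells. The normal and CML stem cell ranges all but met, at 15.93 RPKM in ST-HSCs and 15.83 RPKM in LT-CML replicate 1. Of single genes tested, 11.4% had all CML stem cell libraries below all normal HSC libraries.

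**Figure D2:**
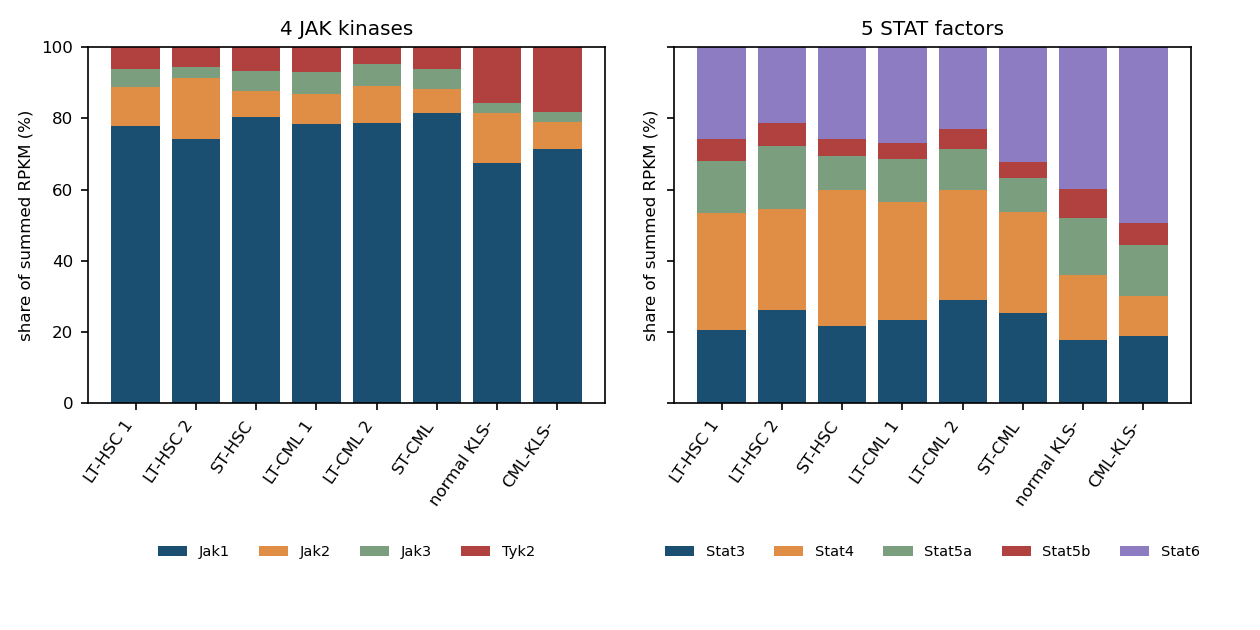
Share of each gene in the summed RPKM of the 4 JAK kinases (left) and the 5 STAT factors (right), in percent (y axes), for each library (x axes; 1 and 2 are replicates). In the 2 KLS- bars the Tyk2 share was 15.7 to 18.3% and Stat4 took less than Stat6, which held 39.9 to 49.4% of the STAT total.

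The design first asks whether CML changed these transcripts in stem cells. None of the 9 genes passed the threshold between the 3 CML stem cell libraries and the 3 normal HSC libraries (limma on log2(RPKM + 1), adjusted p between 0.426 and 0.93), and none had an unadjusted p under 0.05. Over all 12561 genes tested, 2.34% passed, and 12.5% had an unadjusted p under 0.05. The median log2 fold change was -0.11 over the members and -0.04 over all genes tested. Each group holds 2 LT libraries and 1 ST library, so the SDs and intervals below include the difference between LT and ST cells. With LT or ST as a covariate, no member passed either, beside 543 of the 12561 genes tested. In that fit 1 member had an unadjusted limma p under 0.05, as did 2138 of all genes tested. The limma adjusted p of Jak2 was then 0.236.

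Jak2 had the largest difference. CML stem cells averaged 4.66 ± 0.36 RPKM (SD, n = 3) against 6.87 ± 2.02 RPKM (SD, n = 3) for normal HSCs, and the log2 fold change was -0.45 (standard error, SE, 0.20, 95% interval -0.92 to 0.02, limma adjusted p = 0.426). All 3 CML libraries lay below all 3 normal ones (exact permutation test, two-sided, p = 0.1, the smallest p that 3 against 3 allow), a separation found in 11.4% of all genes tested. Without LT-HSC replicate 2 the log2 fold change was -0.25 (limma adjusted p = 0.617). Neutrophil transcripts were highest in that library, which was also the only one labelled 6 months old. The parts of age and of neutrophil transcripts in its Jak2 level cannot be told apart and were not tested. In a fit of all 8 libraries with disease and cell type as terms, which also uses the KLS- pair, the log2 fold change of Jak2 was -0.49 (SE 0.14, limma adjusted p = 0.0788).

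Stat5b libraries also did not overlap, and CML stem cells averaged 4.34 ± 0.23 RPKM (SD, n = 3) against 5.34 ± 0.15 RPKM (SD, n = 3) for normal HSCs. The log2 fold change was -0.25 (SE 0.13, 95% interval -0.56 to 0.06, limma adjusted p = 0.521). For Stat5a it was -0.33 (SE 0.18, 95% interval -0.74 to 0.08, limma adjusted p = 0.509), with overlapping libraries.

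The other 6 genes had log2 fold changes between -0.16 (Stat4) and 0.24 (Jak3). Their intervals set how large a change these libraries leave possible. The interval reached from -0.50 to 0.37 for Jak1, from -0.25 to 0.49 for Stat3, from -0.53 to 0.72 for Stat6 and from -0.33 to 0.81 for Jak3. These intervals are on the log2(RPKM + 1) scale, which shrinks changes of genes with few RPKM such as Jak3.

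Within LT cells alone, none of the 9 genes passed, as against 1.73% of all genes tested. Jak2 was the 1 member with an unadjusted p under 0.05 in limma, which 11.6% of all genes tested had. The log2 fold change from LT-HSCs to LT-CML stem cells was -0.55 for Jak2 (SE 0.23, 95% interval -1.08 to -0.02, limma adjusted p = 0.407), -0.45 for Stat5a and -0.30 for Stat5b. Both LT-CML libraries lay below both LT-HSC libraries for these 3 genes, as for 23.0% of all genes tested. Without LT-HSC replicate 2 the Jak2 value was -0.32. Jak3 had the largest positive value, 0.41 (limma adjusted p = 0.62), and it was 0.12 without LT-HSC replicate 2 and 0.70 without LT-HSC replicate 1. The Stat5a value was -0.24 without LT-CML replicate 2.

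The response to CML was also compared between progenitors and stem cells. The disease effect in KLS- cells minus that in stem cells ranged from -0.22 (Jak2) to 0.41 (Stat6) on the log2 scale, with an adjusted p of 1.0 for each of the 9 genes in limma. No member had an unadjusted p under 0.05. Of all genes tested, 0.0239% passed and 3.18% had an unadjusted p under 0.05. The comparison rests on 1 KLS- library of each kind, and the intervals were wide, from -0.54 to 1.36 for Stat6 and from -1.10 to 0.65 for Jak2.

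**Figure D3:**
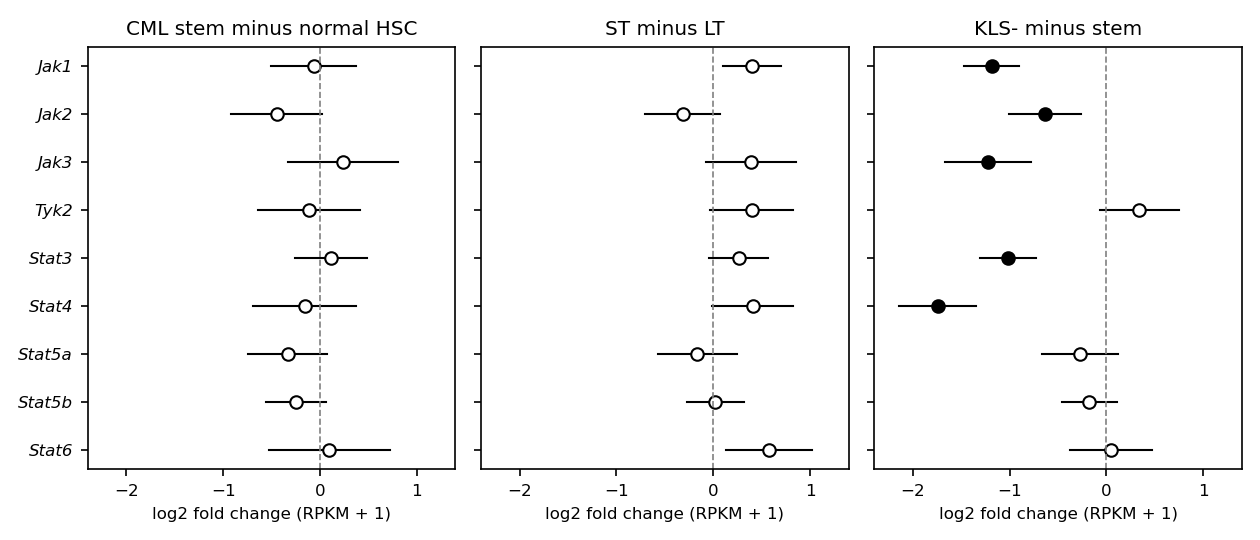
Log2 fold change of log2(RPKM + 1) with its 95% interval (x axes) for the 9 genes (y axis) in 3 comparisons, filled where the adjusted p of limma was under 0.05. No gene is filled for CML stem cells against normal HSCs or for ST against LT cells, and 5 are filled and left of 0 for KLS- against stem cells, from Jak2 at -0.64 to Stat4 at -1.74.

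The main contrast in these genes was between KLS- progenitors and stem cells. Stat4, Jak3, Jak1, Stat3 and Jak2 were lower in KLS- cells, 5 of 9 genes, and Tyk2, Stat5a, Stat5b and Stat6 did not pass. Of all genes tested, 48.7% passed, 26.5% lower and 22.2% higher, so this contrast ran across the transcriptome. No overlap between KLS- and stem cell libraries, with KLS- lower, was found for the same 5 members and for 27.7% of all genes tested. The median log2 fold change was -0.64 over the 9 genes and -0.08 over all genes tested.

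Stat4 fell by 1.74 on the log2 scale (SE 0.18, limma adjusted p = 0.000136, n = 2 KLS- and 6 stem cell libraries). Jak1 fell by 1.18 (SE 0.13, limma adjusted p = 0.000177) and Stat3 by 1.02 (SE 0.13, limma adjusted p = 0.000401). In mean RPKM, stem cells had 3.49 times as much Stat4, 2.25 times as much Jak1 and 2.05 times as much Stat3.

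Jak3 fell by 1.22 (SE 0.20, limma adjusted p = 0.0012), and since its KLS- values were below 1 RPKM, the added 1 shrinks this figure: the ratio of mean RPKM was 3.89. Jak2 fell by 0.64 (SE 0.16, limma adjusted p = 0.0114), with a mean ratio of 1.81. The Jak2 call was lost without the disease term (limma adjusted p = 0.0788), after quantile normalization (adjusted p = 0.0786), without the normal KLS- library (adjusted p = 0.0579) and without the CML-KLS- library (adjusted p = 0.132). The other 4 calls held in each of 15 alternative analyses.

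For the genes that did not pass, the log2 difference between KLS- and stem cells was 0.34 for Tyk2 (95% interval -0.07 to 0.75), 0.05 for Stat6 (-0.38 to 0.47), -0.18 for Stat5b (-0.46 to 0.11) and -0.27 for Stat5a (-0.66 to 0.12). Tyk2 passed after quantile normalization (0.48, limma adjusted p = 0.0492). In sorted bulk cells, fewer cells of a type and less RNA per cell cannot be told apart. Since 2 of the 6 stem cell libraries carried progenitor transcripts, the separation was also examined without LT-CML replicate 2 and without ST-CML. Each fit left out 1 of these libraries and kept the other. For Jak1, Jak2, Jak3, Stat3 and Stat4, log2 fold changes were -1.21, -0.64, -1.22, -1.03 and -1.77 without LT-CML replicate 2. Without ST-CML they were -1.21, -0.55, -1.31, -1.03 and -1.84. The part of progenitor transcripts in these differences was not tested.

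Between ST and LT stem cells none of the 9 genes passed, against 4.87% of all genes tested. Jak1 and Stat6 had an unadjusted p under 0.05 in limma, as did 19.6% of all genes tested. Stat6 was 28.9 and 33.6 RPKM in the ST libraries and 17.0 to 25.5 RPKM in the 4 LT libraries, a log2 difference of 0.58 (SE 0.20, limma adjusted p = 0.144). Jak1 differed by 0.40 (SE 0.13, limma adjusted p = 0.135). Both ST libraries lay above all 4 LT libraries for Jak1, Jak3, Tyk2, Stat3 and Stat6, a separation found in 11.3% of all genes tested. Jak2 and Stat5a had negative differences, -0.31 and -0.17.

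The partners of these genes were read from 5 lists of receptors, ligands, inhibitors, STAT targets and adaptors. Between CML stem cells and normal HSCs, 1 of 31 receptors tested, 1 of 22 inhibitors and 1 of 20 STAT targets were higher, none of the 13 ligands and 12 adaptors tested passed, and no listed gene was lower. Over all genes tested, 1.18% were higher. Pim2, a survival kinase induced by STAT5, was 7.2 to 10.8 RPKM in normal HSCs and 20.3 to 24.3 in CML stem cells, with log2 fold change 1.29 (SE 0.17, limma adjusted p = 0.0109). Cish, a STAT5-induced inhibitor of cytokine receptors, was 8.25 to 12.8 RPKM in normal HSCs and 19.8 to 28.9 in CML stem cells (1.11, SE 0.20, limma adjusted p = 0.0366). Csf2rb2, a receptor chain for interleukin-3, was 0.987 to 2.07 and 3.28 to 4.11 RPKM (0.96, SE 0.19, limma adjusted p = 0.0484). It is a near-identical copy of Csf2rb, so the reads of both genes are uncertain.

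All 3 CML stem cell libraries lay above all 3 normal HSC libraries for each of these 3 genes. The genes were named because they passed on these same libraries, so the separation is no further support. With each of the 6 libraries left out in turn, Pim2 passed in 4 fits, Csf2rb2 in 1 and Cish in 0, with limma adjusted p values of up to 0.0649, 0.193 and 0.143 over all 13 alternatives. Their log2 fold changes stayed between 0.99 and 1.44 for Pim2, 0.82 and 1.35 for Csf2rb2 and 0.95 and 1.24 for Cish. Within LT cells, 0.939% of all genes tested were higher in LT-CML stem cells. So were 4 listed genes, of which Csf2rb and Csf2rb2 may share reads. The 4 were Csf2rb (3.04 and 3.36 RPKM in LT-HSCs against 10.1 and 12.5), Csf2rb2, Il10ra (0.244 and 0.539 RPKM against 1.77 and 2.12) and Pim2. Their log2 fold changes were 1.55, 1.12, 1.09 and 1.52. None of these 4 passed in the smaller fits with 1 of the 4 LT libraries left out, but over all 10 alternatives their log2 fold changes stayed between 1.4 and 1.78, 0.99 and 1.60, 0.93 and 2.12, and 1.44 and 1.62. No listed gene passed the comparison of disease effects between KLS- and stem cells, where the value for Pim2 was -1.10 (limma adjusted p = 0.937).

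Between KLS- and stem cells the lists moved in both directions. Of the 31 receptors tested, 8 (25.8%) were lower and 7 (22.6%) higher in KLS- cells, close to the 26.5% and 22.2% of all genes tested. Il2rg, the common gamma chain that binds Jak3, was 61.8 to 129.9 RPKM in stem cells and 29.8 and 31.2 RPKM in the normal and the CML KLS- library, with a log2 fold change of -1.55 (SE 0.11, limma adjusted p = 2.77e-05). Il27ra, a chain of the interleukin-27 receptor, was 15.0 to 21.0 RPKM in stem cells and 5.16 and 3.72 RPKM in KLS- cells and fell by 1.85. Ifngr1, a chain of the interferon gamma receptor, rose by 1.65.

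Of the 22 listed inhibitors, 7 (31.8%) were lower and none higher, the lower share being near that of all genes tested. The lowest log2 fold changes were -2.92 for Cish, -2.29 for Socs2 and -2.10 for Socs3. Of the STAT targets, 11 of 20 (55%) were lower, with Pim2 (-2.14), Junb (-1.90) and Pim1 (-1.48) at the front, and 3 were higher, Osm, Gfi1 and Myc. The median log2 fold change was -0.21 over the inhibitors and -0.66 over the STAT targets, beside -0.08 over all genes tested.

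Beside the 26.5% lower and 22.2% higher over all genes tested, 5 of the 13 ligands tested (38.5%) were lower, led by Il15 (-1.78), Clcf1 (-1.49) and Il7 (-1.23), and 2 were higher, Tslp and Osm. Of the 12 adaptors, 5 (41.7%) were lower, led by the phosphoinositide 3-kinase subunit Pik3r1 (-1.02), Irf9 (-0.95) and Stam (-0.61), and 1 was higher, Sh2b2 (0.81). Between ST and LT cells, the receptors Csf3r, Il10ra, Csf2rb, Il10rb and Il2rg were higher in ST cells and Epor was lower, 6 of 31, and Il15 was higher and Ccnd3 lower among ligands and STAT targets. Over all genes tested, 2.13% were higher and 2.74% lower in ST cells. The names in this ST and LT comparison, Tslp, Osm, Gfi1, Myc and Stam were taken after their values were seen.

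**Figure D4:**
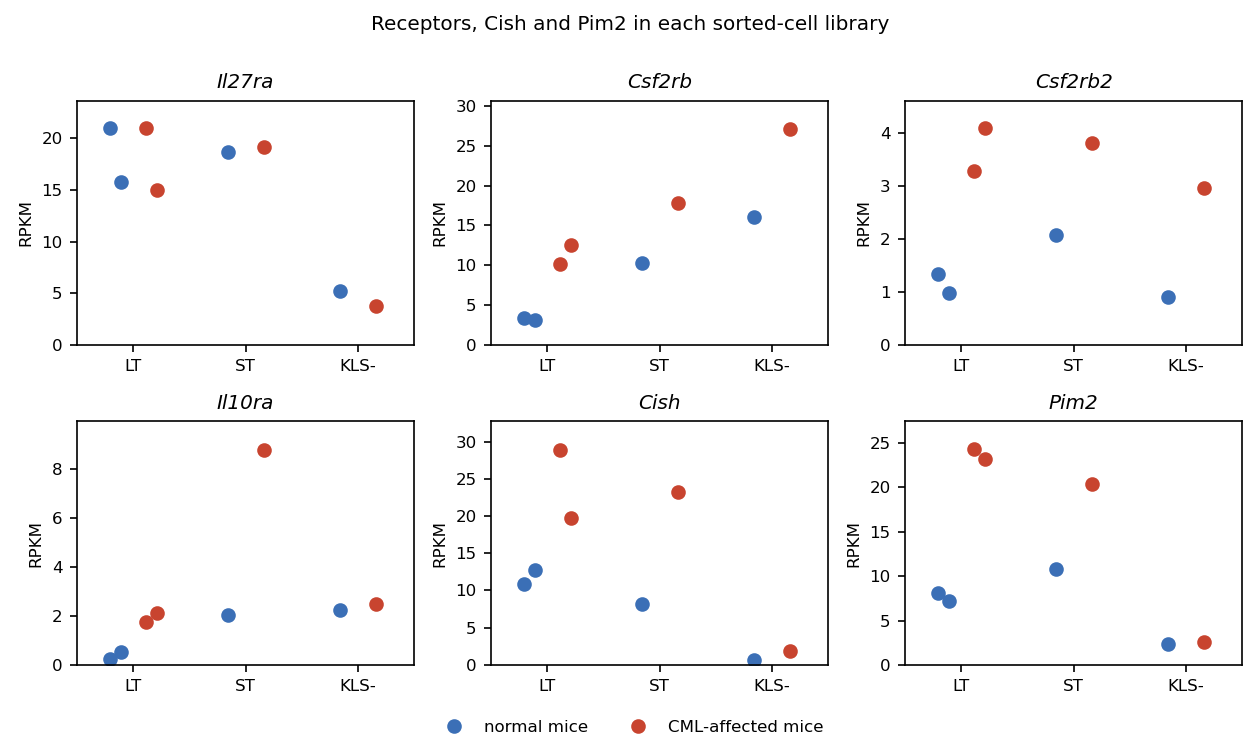
RPKM of 4 receptor chains (Il27ra, Csf2rb, Csf2rb2 and Il10ra), the inhibitor Cish and the kinase Pim2 (y axes, each from 0) in LT, ST and KLS- cells (x axes), with 1 point per library, blue for normal and red for CML-affected mice. Il27ra was 15.0 RPKM or more in every stem cell library and 5.16 RPKM or less in KLS- cells. The red stem cell points of Cish and Pim2, which were named because they passed on these libraries, lie above all blue ones.

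The genes closest in pattern were sought for the 3 members with the widest range on the log2 scale, over all 8 libraries and 10024 other genes with a mean of at least 1 RPKM. Stat4 was most like Adam22 (Pearson r = 0.9915), Prkacb (0.9906) and Rbm18 (0.9905). Jak2 was most like Ppp2r5e (0.998), Bmi1 (0.994) and Efha1 (0.991), and Jak1 most like Axl (0.997), Ssh3 (0.993) and Slc12a7 (0.993). Bmi1, a Polycomb factor needed for HSC self-renewal, was 4.90 and 7.01 RPKM in LT-HSCs, 4.15 in ST-HSCs, 3.27 in normal KLS- cells, 3.84 and 4.05 in LT-CML stem cells, 3.84 in ST-CML stem cells and 2.12 in CML-KLS- cells, with LT-HSC replicate 2 highest as for Jak2. These correlations are descriptions over 8 libraries that share the contrast of KLS- with stem cells, and the best of 10024 genes must be high.

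The palindromic STAT motif was searched in the promoters of the members, from 250 bases before to 50 bases after each RefSeq start (GRCm38.p6, another build than that of the deposited values). On either strand, TTCNNNGAA occurred in 0 of 12 member promoters and in 8.30% of 32851 promoters. This says no more than that these letters are missing from these windows.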

How the data were processed

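RNA of 8 libraries from sorted bone marrow cells was used, grouped by their labels. The authors extracted RNA from cells sorted into lysis solution, built libraries with the oligo-dT primed SMARTer Ultra Low Input RNA Kit, read both ends of each fragment for 100 bases, aligned the reads to mm9 (NCBI Build 37) through a commercial platform and deposited RPKM for each gene. The gene annotation and the treatment of reads with several matches are not given in the sources used here, and the kit does not mark strand. Ultra-low-input amplification and oligo-dT priming can raise the noise of low genes and weight reads towards 3′ ends.

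RPKM are not counts, so no count test was run. Genes with a total above 1 RPKM (12561 of 20207) were fitted as log2(RPKM + 1) with the limma package (version 3.58.1, R 4.3.3) and its eBayes step with a trend, with Benjamini-Hochberg adjustment over all genes tested and a threshold of 0.05. A fold change on this scale understates the change of low genes. CML stem against normal HSC libraries used 6 libraries without a covariate, LT-CML against LT-HSC and the difference of disease effects used a fit with 6 population means (2 residual degrees of freedom), and KLS- against stem and ST against LT cells used an additive fit with disease. Depth was estimated from the steps of low RPKM values, of which 69.4% of 5027 genes lay on whole multiples within 0.05 reads, with exon lengths of GENCODE M1 setting the scale; read numbers are approximate and their counting error is a lower limit of the error. Sequences were read from mm9.

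The genes named besides the 9 members are listed pathway genes that passed in a disease comparison, the 3 largest changes per list between KLS- and stem cells, and the 3 genes most like each of 3 members. The members and lists were chosen with earlier results of these data known, and 2 genes of the lists are not reported here and were left out of their counts. The fits were tested on simulated data. Other settings tried were a pseudocount of 0.1, other minima of RPKM, scaling by quantiles or the upper quartile, other covariates and samples, and leaving out each library in turn. Values were analysed with Python 3.11.15, pandas 2.3.3, Biopython 1.88 and matplotlib 3.10.9.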

Additional observations from a re-analysis of the deposited data

How the results depend on the processing

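No member passed in CML stem against normal HSCs (13 alternatives), LT-CML against LT-HSC (10), ST against LT (15) or the difference of disease effects (9), with lowest adjusted p values of 0.0788, 0.224, 0.0605 and 0.999. Between KLS- and stem cells 4 to 5 members passed in 15 alternatives, and Jak1, Jak3, Stat3 and Stat4 in each; Jak2 had log2 fold changes of -0.45 after quantile normalization, -0.64 without the disease term, -0.72 without normal KLS- and -0.55 without CML-KLS- cells, where it did not pass. Over the alternatives, values of members that were not called turned sign 8 times in CML stem cells (Jak1, Jak3, Tyk2, Stat4 and Stat6), 10 times in LT cells (Jak1, Tyk2, Stat3, Stat4 and Stat6), 4 times between KLS- and stem cells (Stat6) and 2 times between ST and LT cells (Stat5b). Those that also moved by more than their standard error were Jak3 (-0.01 in CML stem cells without LT-HSC replicate 2), Stat4 (-0.21) and Stat6 (-0.24) in LT cells without LT-CML replicate 1, Tyk2 (0.21) in LT cells without LT-CML replicate 2, and Stat6 between KLS- and stem cells (-0.15 after quantile normalization, -0.17 without CML-KLS-). Upper-quartile scaling moved the median of all genes between KLS- and stem cells to -0.14, and relative to it Stat4 was at -1.70 and Jak2 at -0.58.

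Counts of genes called over the whole table moved more. Against 294 for CML stem cells there were 193 with no minimum on RPKM, 543 with LT or ST as covariate, 776 in the additive fit of all 8 libraries and 115 to 217 with 1 library left out. For LT cells, 217 became 0 with no minimum (1765 at an unadjusted p under 0.05) and 6 to 74 with 1 library left out. For KLS- against stem cells, 6123 became 3178 to 6338 with 1 library left out. For ST against LT cells, 612 became 283 with no minimum, 287 with no disease term, 392 with 6 population means and 110 to 718 with 1 library left out. For the difference of disease effects, 3 became 0 with a pseudocount of 0.1, with no minimum, and after quantile or upper-quartile scaling (411, 1061, 436 and 395 at an unadjusted p under 0.05 from limma), and 0 to 0 with 1 library left out. The cause was not tested; where 1 LT library was left out, the lone library was assumed to vary like the other groups. No paired analysis was possible because the labels number replicates in 1 group only. Depth limits Jak3 most.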
